A study of Mus musculus with 14 samples.

Results

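The oxidative phosphorylation genes were followed at the mRNA level in spheroids of 4T1, a mouse triple-negative breast cancer cell line. They were taken by symbol: every row beginning with mt-, Nduf followed by a, b, c, s or v, Sdha to Sdhd, Uqcr, Cox4 to Cox8, or Atp5, without 9 rows whose symbol carries -ps, the mark of a pseudogene. This gave 106 of the 19525 genes in the table. Of these, 15 are encoded by mitochondrial DNA (13 mRNAs and the ribosomal RNAs mt-Rnr1 and mt-Rnr2) and 91 by nuclear DNA. The symbol rule also takes in 8 Ndufaf genes, which encode assembly factors of complex I and not its subunits, and 6 nuclear members averaged under 5 CPM, that is, counts per 1000000 of a library's TMM-adjusted total.

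All libraries came from the cytosolic lysate of spheroids cultured over 5 days in lung-like medium, which is adapted to the nutrients of the lung. Every line carried a lentiviral pLKO hairpin as a puromycin-selected pool and not as a clone. The group ASP shSCR (n = 4) carried a non-targeting hairpin and received 700 µM aspartate, NoASP shSCR (n = 3) carried the same hairpin without added aspartate, ASP shGRIN2D (n = 3) received 700 µM aspartate and carried a hairpin against Grin2d, which encodes a subunit of the NMDA-type glutamate receptor, and ASP shDHPS (n = 4) received 700 µM aspartate and carried a hairpin against Dhps, whose product begins the hypusine modification of the translation factor eIF5A. The study describes the replicates as independent spheroid pellets. No group without aspartate carried a targeting hairpin, and each gene was targeted in a single line, so the effect of a hairpin and that of its line cannot be told apart.

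Oxidative phosphorylation makes ATP at the inner mitochondrial membrane. Complexes I (NADH dehydrogenase) and II (succinate dehydrogenase) feed electrons into the chain, complex III passes them to cytochrome c, complex IV (cytochrome c oxidase) hands them to oxygen, and complex V (ATP synthase) uses the proton gradient that complexes I, III and IV build. Mitochondrial DNA encodes core subunits of complexes I, III, IV and V and none of complex II, while the nuclear genome encodes the remaining subunits, so most complexes need transcripts from both genomes. The mitochondrial genes are read as long transcripts from both strands and cut into single RNAs, and the tails of mammalian mitochondrial RNAs are much shorter than those of cytosolic mRNAs.

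The libraries held between 12731123 and 23231378 counts. The mt- genes took between 4.53% and 6.23% of a library's counts and the nuclear members between 0.845% and 1.12%. The epithelial markers summed to between 3589 and 5001 CPM, whereas the leukocyte markers summed to at most 1.08 CPM and the endothelial markers to at most 0.55 CPM in any library. Of the fibroblast markers only Pdgfra averaged over 0.1 CPM, at 29.1 CPM. Dhps stood at 5.6, 5.5, 7.6 and 9.1 CPM in ASP shDHPS and at 18.7, 22.1, 20.2 and 16.7 CPM in ASP shSCR (log2 fold change −1.48 ± 0.15 SE, adjusted p = 8.31e-06, edgeR quasi-likelihood test). Grin2d was barely expressed, with 2.1, 2.2 and 3.1 CPM in ASP shGRIN2D and 3.3, 3.2, 3.7 and 4.2 CPM in ASP shSCR. Its fold change of −0.55 on the log2 scale did not pass the test (adjusted p = 0.522), although the libraries did not overlap. At this depth the counts alone did not establish knockdown of Grin2d. The study presents qPCR of Grin2d in silenced 4T1 spheroids as its own check.

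Sequences of the mitochondrial members are given first, because they bear on how each member was counted. The libraries were prepared from polyadenylated RNA, which is captured on oligo(dT), and the ribosomal RNAs mt-Rnr1 and mt-Rnr2 turned out to carry the clearest differences between groups. mt-Rnr1 (ENSMUSG00000064337), the RNA of the small mitochondrial ribosomal subunit, is 955 bases long and lies at chrM:70-1024 on the plus strand in GRCm38, a build older than the GRCm39 assembly used for counting. mt-Rnr2 (ENSMUSG00000064339), the RNA of the large subunit, is 1582 bases long and lies at chrM:1094-2675 on the same strand. Both are exonic over their whole length. Below, the last 30 bases of each annotated transcript have any run of at least 3 A in capitals, and the internal stretch has its most A-rich window of 20 bases in capitals.
mt-Rnr1, chrM:995-1024, 3′ end: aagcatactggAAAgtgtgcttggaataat
mt-Rnr1, chrM:720-749, A-rich stretch: taagcAAAAGAATCAAACATAAAAAcgtta
mt-Rnr2, chrM:2646-2675, 3′ end: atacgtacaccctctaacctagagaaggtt
mt-Rnr2, chrM:1483-1512, A-rich stretch: ttgctAAAAAAACAACAAAATCAAAaagta
Such windows held 15 A in mt-Rnr1 and 16 in mt-Rnr2, against 8 to 14 in the richest window of each of the 13 mt- mRNAs. By the longest unbroken run of A they did not stand apart, with 5 and 7 against 3 to 8 in the mt- mRNAs. Whether oligo(dT) bound the stretches shown was not tested.

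A second property of the sequences concerned the mRNAs. For 7 of the 13 mt- mRNAs the table also held rows for pseudogenes that match the transcript over at least 150 bases at 97% identity or more. mt-Co2 (cytochrome c oxidase subunit 2) and the pseudogene Gm28661 were identical over 681 aligned bases, mt-Atp6 and Gm10925 over 678, and mt-Co3 and Gm28437 over 783. mt-Nd3 and Gm28438 differed at 1 of 345 aligned bases, T3C, counted from the first base of mt-Nd3 and shown here in capitals within the first 30 bases.
mt-Nd3: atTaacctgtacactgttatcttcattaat
Gm28438: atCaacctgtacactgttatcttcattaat
The pseudogene rows took a large part of the counts. Summed over the 14 libraries, they held 82.8% of the joint counts for mt-Nd3, 74.0% for mt-Co2, 70.6% for mt-Nd4l, 65.0% for mt-Co3 and 55.2% for mt-Atp6, but 5.47% for mt-Co1 and 1.55% for mt-Nd4. The level of those first 5 mRNAs in the table is therefore uncertain, and so is their place in any order of levels. No row of this kind was found for mt-Rnr1 or mt-Rnr2. Among the 91 nuclear members, 15 had 22 such copies, which took at most 7.03% of the joint counts (Ndufa12). Adding the copies to their members left the number of members called at 0, 2, 0 and 2 in the comparisons below, taken in order, as it was without them.

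**Figure D1:**
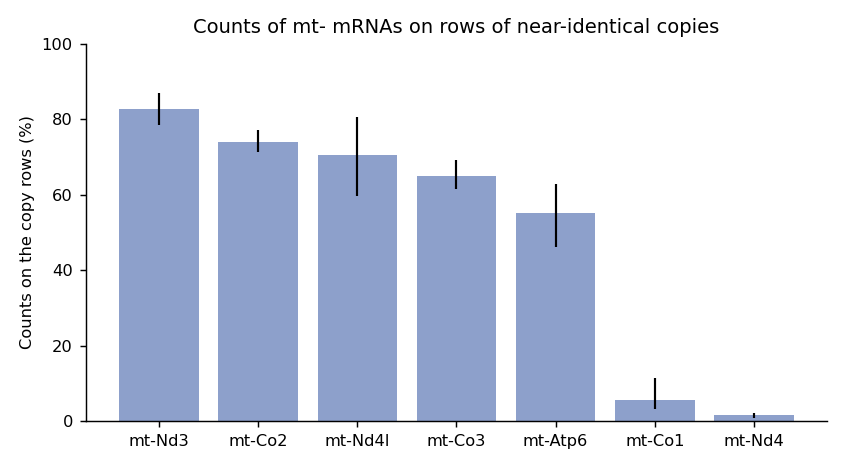
Share of counts, in percent, that fell on rows of near-identical pseudogene copies for the 7 mt- mRNAs that have them; bars give the share over all 14 libraries and vertical lines the lowest and highest library. The bars of mt-Nd3, mt-Co2, mt-Nd4l, mt-Co3 and mt-Atp6 lie between 55.2% and 82.8%, and those of mt-Co1 and mt-Nd4 at 5.47% and 1.55%.

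Per transcript length, the mitochondrial mRNAs stood far above the nuclear ones. Their median level was 4415 CPM per kilobase, against 114 CPM per kilobase for the 85 nuclear members with a mean of at least 5 CPM; with the reads of the near-identical copies added to the mt- mRNAs it was 5854. Counted alone, mt-Co1, the catalytic core subunit of complex IV, had the highest level per length at 9883 CPM per kilobase, followed by mt-Cytb of complex III at 7975 and mt-Atp8 of complex V at 7112 CPM per kilobase. With the copies added, mt-Atp6 at 13180 and mt-Co2 at 11299.7 CPM per kilobase stood above mt-Co1 at 10457, so which mt- mRNA is the most abundant depends on where those reads are placed. The lowest mt- mRNA was mt-Nd6 at 18.8 CPM per kilobase, and it is also the only one of the 13 that lies on the minus strand. How well oligo(dT) captured this RNA was not measured, so its level here need not be its abundance in the cells. mt-Nd6 overlaps mt-Nd5 on the opposite strand, and mt-Atp8 with mt-Atp6 and mt-Nd4l with mt-Nd4 overlap on the same strand. In these pairs reads of the shared bases cannot be assigned with certainty. Counted alone, 11 of the 13 mt- mRNAs stood above the highest nuclear member per length, the complex V catalytic subunit gene Atp5b with 566 CPM per kilobase, and 12 did with the copies added.

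Over all nuclear subunit genes matched by the rule, silent paralogs included, the median level per length was lowest in complex I and highest in complex V. It was 70.5 CPM per kilobase over 39 complex I subunit genes, 89.3 over the 4 genes of complex II, 185 over 8 of complex III, 200 over 15 of complex IV and 226 over 17 of complex V, and 11.3 CPM per kilobase over the 8 assembly factors. The 4 succinate dehydrogenase genes, whose products Sdha and Sdhb carry the catalytic centres and Sdhc and Sdhd anchor them in the membrane, lay close together, from 69.4 CPM per kilobase for Sdha to 138 for Sdhc. These orders describe mean levels; they were not tested.

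In the Cox6a and Cox7a families of complex IV, a muscle form lay near 0 while the rest were expressed. Cox6a1 averaged 372 CPM per kilobase and Cox6a2, known from heart and skeletal muscle, 0.113, with at most 5 counts in any library. Cox7a2 averaged 142 CPM per kilobase and Cox7a2l 200, whereas Cox7a1, also a form of muscle, averaged 0.213. Cox4i1 stood at 490, Cox6b1 at 270 and Ndufa4 at 488 CPM per kilobase; their paralogs Cox4i2, Cox6b2 and Ndufa4l2 were not analysed here. The remaining members near 0 were Cox6c2 and Ndufs6b.

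**Figure D2:**
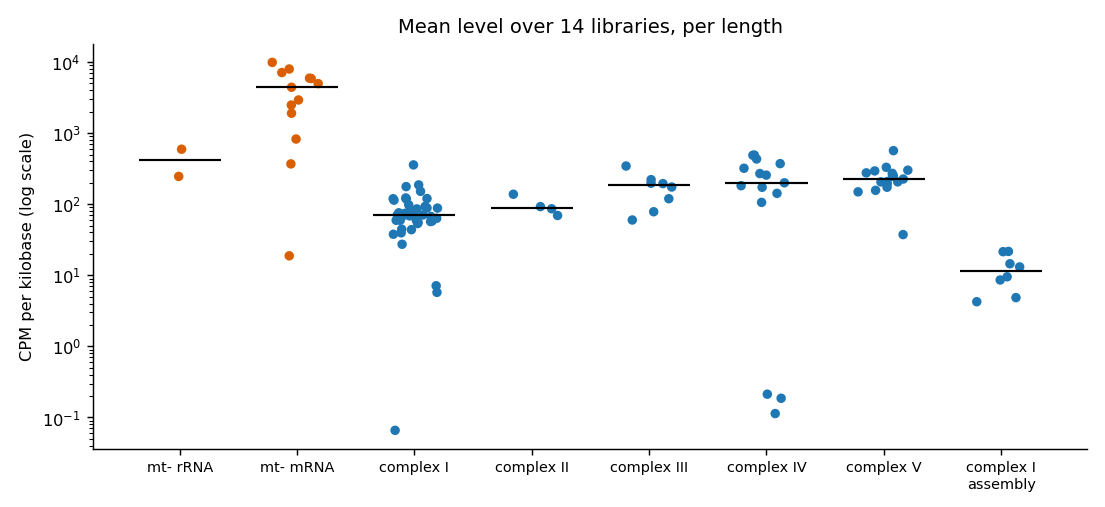
Mean level of each of the 106 members over the 14 libraries in CPM per kilobase of transcript, on a log axis, by class; each point is 1 gene, orange for mitochondrial and blue for nuclear genes, and the line is the class median. Counted without copies, the mt- mRNA median of 4415 lies above every nuclear gene, and within the nuclear genes the class medians run from 11.3 for the assembly factors to 226 for complex V.

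Replicates of a group differed more in the mitochondrial than in the nuclear transcripts. The median standard deviation within groups on the log2 CPM scale was 0.22 over the 13 mt- mRNAs, 0.16 over the 85 nuclear members with at least 5 CPM and 0.16 over all 10224 genes at that level. mt-Co1 was the steadiest mt- mRNA (0.09) and mt-Nd6 the least steady (0.50), and of the nuclear members Ndufv1, which encodes a core subunit of complex I, varied least (0.07). The ratio of mt- mRNA counts to nuclear member counts is taken within a library and does not depend on scaling. Its log2 was 2.33, 2.43 and 2.84 in NoASP shSCR replicates 2, 3 and 4, it was 2.30, 2.33, 2.31 and 2.69 in ASP shSCR replicates 1 to 4, and it was 2.28, 2.39, 2.40 and 2.64 in ASP shDHPS replicates 1 to 4. The library numbered 4 was the highest in each of these 3 groups. In ASP shGRIN2D, which has no library of that number, the log2 ratios were 2.55, 2.57 and 2.69.

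**Figure D3:**
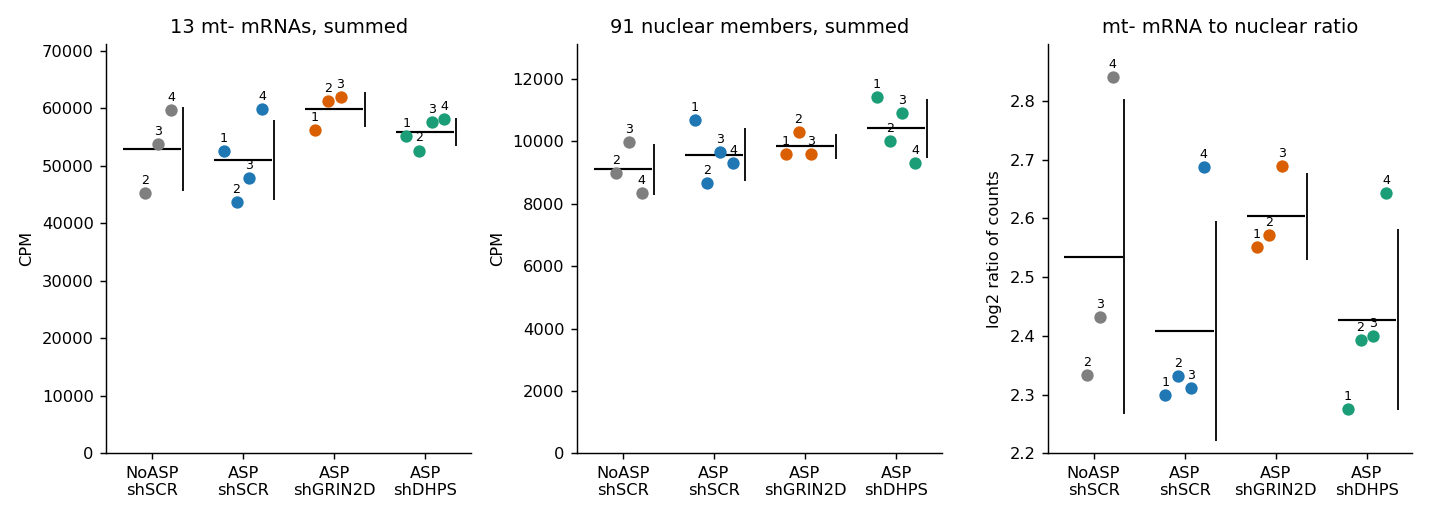
Summed CPM of the 13 mt- mRNAs (left), summed CPM of the 91 nuclear members (middle) and log2 ratio of their counts (right) in each of 14 libraries, by group; points carry the replicate number, horizontal lines are group means and vertical lines 1 SD to either side. In the right panel the library numbered 4 lies highest in each of the 3 groups that have one, from 2.64 to 2.84.

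The first comparison asked what aspartate changes in control spheroids. No oxidative phosphorylation gene passed the test between ASP shSCR and NoASP shSCR: 0 of 106 members passed an adjusted p of 0.05 in edgeR's quasi-likelihood test, and so did 0% of all genes tested. DESeq2 called 0 members as well, and 0% of all genes. At an unadjusted p under 0.05 there was 1 member, against 2.17% of all genes, and in no member did the 2 groups' libraries fail to overlap, against 2.71% of all genes. The 1 member was mt-Nd6, a membrane subunit of complex I, with 16.6, 6.2, 8.0 and 12.7 CPM in ASP shSCR and 7.5, 4.7 and 7.0 CPM in NoASP shSCR. The groups overlapped, and its log2 fold change of 0.77 ± 0.30 (SE) had an adjusted p of 1. When edgeR paired like-numbered libraries as a block within the 7 shSCR libraries, 8 of 106 members had an unadjusted p under 0.05. The same p was reached by 868 of 19525 genes. Of the 8 members 1 was higher and 7 were lower with aspartate, and none was called.

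The nuclear members lay mostly on one side in the fit without pairing. The fitted log2 fold change was above 0 for 77 of 91 nuclear members, with a median of 0.09, and below 0 for 9 of 13 mt- mRNAs, with a median of −0.07, while the median over all genes tested was 0.00 (50.2% of them above 0). The 4 complex II genes had a median of 0.02, the 15 nuclear complex IV genes 0.14 and the 8 complex III genes 0.13. This lean depended on single libraries. Members vary together between libraries and are not independent. Without NoASP shSCR replicate 4 the nuclear median was 0.01 with 55 of 91 above 0 and the mt- mRNA median 0.04 with 9 of 13 above 0. Without ASP shSCR replicate 1 the nuclear median was 0.02 with 57 of 91 above 0, and without ASP shSCR replicate 2 the mt- mRNA median was 0.01 with 8 of 13 above 0. With like-numbered libraries paired as a block within the 7 shSCR libraries, the nuclear median was 0.02 with 59 of 91 above 0 and the mt- mRNA median −0.09 with 2 of 13 above 0. ASP shSCR replicate 1 has no partner and so does not enter that contrast. Without it and without pairing the mt- mRNA median was also −0.09 with 2 of 13 above 0. The part of the pairing itself was thus not separated from that omission. Summed over the nuclear members the level was 8991, 9968 and 8337 CPM in NoASP shSCR replicates 2, 3 and 4 and 10681, 8677, 9643 and 9305 CPM in ASP shSCR replicates 1 to 4, so the groups overlapped. The log2 ratio of mt- mRNA to nuclear counts was lower with aspartate in each pair of like-numbered libraries, by differences of −0.0017, −0.12 and −0.15. In bulk samples, fewer cells of a kind and less RNA per cell cannot be told apart, and how much of the mitochondrial content the lysis released was not measured.

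The second comparison, ASP shGRIN2D against ASP shSCR, asked what the hairpin against Grin2d changes in the presence of aspartate. The mitochondrial ribosomal RNAs rose. mt-Rnr1 and mt-Rnr2 were the only 2 of 106 members that passed the test, both higher in ASP shGRIN2D, against 1.16% of all genes tested in either direction.

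mt-Rnr1 measured 508, 523 and 303 CPM in ASP shGRIN2D replicates 1, 2 and 3. It measured 200, 136, 113 and 219 CPM in ASP shSCR replicates 1 to 4, and 102, 255 and 141 CPM in NoASP shSCR replicates 2 to 4. In ASP shDHPS it measured 204, 225, 181 and 180 CPM. Every ASP shGRIN2D library stood above all 11 other libraries. The group means were 445 ± 123 CPM (SD, n = 3) and 167 ± 50.5 CPM (SD, n = 4) in ASP shSCR, a log2 fold change of 1.42 ± 0.24 (SE) with an adjusted p of 0.00221.

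mt-Rnr2 measured 1550, 1290 and 1115 CPM in ASP shGRIN2D and 859, 630, 752 and 893 CPM in ASP shSCR. NoASP shSCR had 611, 850 and 869 CPM and ASP shDHPS 914, 943, 858 and 1008 CPM, so here too the 3 libraries lay above the other 11. The rise was smaller than that of mt-Rnr1, with a log2 fold change of 0.75 ± 0.13 (SE) and an adjusted p of 0.00299. Without ASP shGRIN2D replicate 1 it came to 0.62 with an adjusted p of 0.0566, and mt-Rnr1 was then the only member called. Set against the mt- mRNAs of the same library, the 2 ribosomal RNAs had log2 ratios of −4.77, −5.08 and −5.45 in ASP shGRIN2D and between −5.99 and −5.49 in the other 11 libraries.

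**Figure D4:**
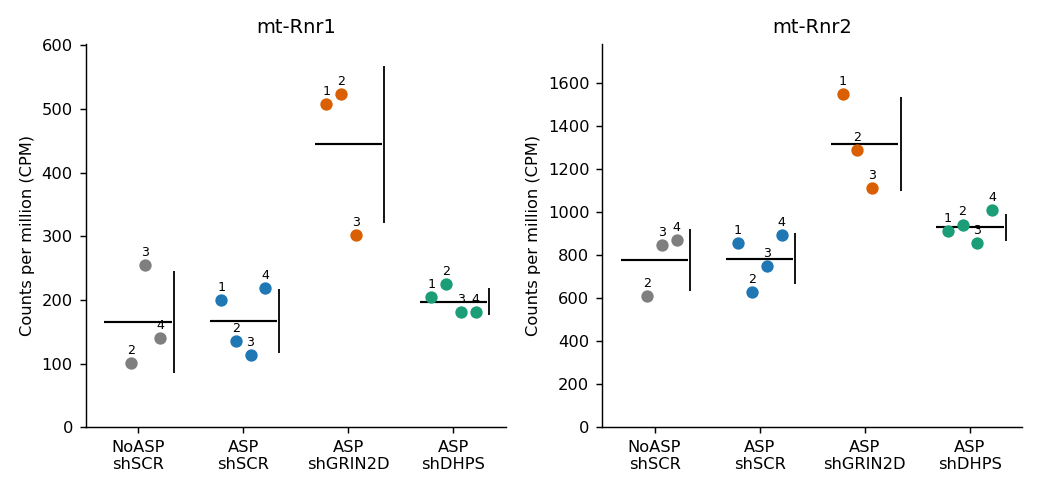
mt-Rnr1 (left) and mt-Rnr2 (right) in CPM in each of 14 libraries, by group; points carry the replicate number, horizontal lines are group means and vertical lines 1 SD to either side. In both panels the 3 ASP shGRIN2D libraries, from 303 to 523 CPM and from 1115 to 1550 CPM, lie above the other 11.

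Other RNAs without a long poly(A) tail were looked up after these values were seen. Rn18s-rs5, a row for sequence of the cytosolic 18S ribosomal RNA, measured 2235, 14859 and 11417 CPM in ASP shGRIN2D replicates 1 to 3, and between 1453 and 10289 CPM in the other 11 libraries. Replicate 1 had the highest mt-Rnr2 and the lowest Rn18s-rs5 of its group. Replicates 2 and 3 exceeded all 11 other libraries in Rn18s-rs5. Rn7sk, a small nuclear RNA, went the same way in ASP shGRIN2D, between 2.2 CPM in replicate 1 and 43.0 CPM in replicate 2. Elsewhere it stood between 1.4 and 29.7 CPM. Summed over the 8 RNAs looked up, the median was 11529 CPM in ASP shGRIN2D. It was 4933 CPM in ASP shSCR, 4653 in ASP shDHPS and 2539 in NoASP shSCR, with overlapping ranges. Nearly all of the sum was Rn18s-rs5. In ASP shGRIN2D the sums ran from 2244 to 15116 CPM, against 2235 to 14859 CPM for that row alone. The sum therefore says little about the remaining RNAs. The part of carry-over of RNA without long tails in the mt-Rnr1 and mt-Rnr2 values was not tested. The nuclear-retained RNAs Malat1, Neat1 and Kcnq1ot1 summed to between 145 and 272 CPM in ASP shGRIN2D, within the range of ASP shSCR (119 to 287 CPM).

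None of the 13 mitochondrial mRNAs passed the test (lowest adjusted p 0.246), 12 had a fitted log2 fold change above 0, and their median was 0.22, against 0.05 for the 91 nuclear members and 0.00 for all genes tested. Leaving out single libraries kept the mt- mRNA median between 0.14 and 0.29, whereas without ASP shSCR replicate 2 the nuclear median was −0.0035 with 45 of 91 above 0. mt-Co1 measured 16793, 17531 and 16261 CPM in ASP shGRIN2D and 14441, 13372, 13291 and 15491 CPM in ASP shSCR, without overlap (log2 fold change 0.25 ± 0.09 SE, adjusted p = 0.257). mt-Nd1, a membrane subunit of complex I, measured 5422, 6090 and 6200 CPM against 5534, 4024, 5077 and 6485 CPM, with overlap and a log2 fold change of 0.16 ± 0.13 (SE, adjusted p = 0.713). mt-Nd1 is the first protein-coding gene after mt-Rnr2 on that strand. Whether the change in mt-Rnr1 differs from that in mt-Nd1 was not tested.

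Of the 91 nuclear members none was called (lowest adjusted p 0.291). The 4 complex II genes lay between −0.05 and 0.14 on the log2 scale, the 8 complex III genes between 0.02 and 0.13, and the 17 complex V genes between −0.18 and 0.15. At an unadjusted p under 0.05 there were 10 members in all, 9.43% of 106, against 10.4% of all genes, and the genomes differed in their shares: 4 of 13 mt- mRNAs (30.8%), all higher in ASP shGRIN2D, and both ribosomal RNAs, but 4 of 91 nuclear members (4.40%). The 4 mt- mRNAs were mt-Co1, mt-Atp8, mt-Nd5 and mt-Nd4l; mt- mRNAs share transcripts and, in part, reads, and are not independent. Groups failed to overlap in 8 members (7.55%), against 12% of all genes, namely both ribosomal RNAs, 1 mt- mRNA and 5 nuclear members. The log2 ratio of mt- mRNA to nuclear counts averaged 2.604 ± 0.07 (SD, n = 3) in ASP shGRIN2D and 2.41 ± 0.19 (SD, n = 4) in ASP shSCR. ASP shSCR replicate 4, at 2.69, lay as high as the highest ASP shGRIN2D library, and the difference of 0.20 became 0.29 without it. Epithelial markers moved with this comparison: 3 of 6 passed the test (Krt7, Krt18 and Cldn7, all lower), and the 6 summed to between 3589 and 3870.03 CPM against 4865 to 4972 CPM in ASP shSCR. Their part in the values of this comparison was not tested.

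The third comparison asked the same of the hairpin against Dhps. No member passed an adjusted p of 0.05 in edgeR, against 4.22% of all genes. DESeq2 called 5, all higher in ASP shDHPS, namely Uqcrq, Uqcr11, Ndufs6, Cox6a1 and Atp5d. That was 4.72% of the members, against 10.5% of the 13084 genes to which DESeq2 gave an adjusted p. At an unadjusted p under 0.05 edgeR had 22 members, all of them higher in ASP shDHPS. This was 20.8% of the members, against 19.3% of all genes and 28.4% of the 10224 genes averaging at least 5 CPM. The number was thus not above the background, while the direction was one-sided in this fit. With offsets for transcript length and GC content 17 were higher and 3 lower, and without ASP shSCR replicate 2 the counts were 11 and 2. Members vary together between libraries, so their directions are not independent.

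The members closest to the threshold were chosen after their values were seen. Uqcrq, a small subunit of complex III, measured 123, 118, 126 and 104 CPM in ASP shDHPS and 106, 75.7, 89.7 and 88.8 CPM in ASP shSCR. ASP shSCR replicate 1 lay above the lowest ASP shDHPS library, and the log2 fold change was 0.39 ± 0.12 (SE, adjusted p = 0.0627). Uqcr11, another small subunit of complex III, measured 117, 108, 116 and 87.8 CPM against 99.4, 65.2, 82.6 and 80.6 CPM, again overlapping at that replicate (0.39 ± 0.12 SE, adjusted p = 0.0812). Ndufs6, an accessory subunit of complex I, measured 51.4, 42.1, 49.5 and 41.4 CPM against 43.2, 28.7, 39.0 and 30.3 CPM (log2 fold change 0.38 ± 0.12 SE, adjusted p = 0.0813). Cox6a1, the broadly used form of that complex IV subunit, measured 251, 236, 254 and 223 CPM against 223, 171, 194 and 208 CPM and its groups met at 223 CPM (0.27 ± 0.09 SE, adjusted p = 0.0849). In each of these genes ASP shSCR replicate 1 was the highest of its group and ASP shDHPS replicate 4 the lowest. Without ASP shSCR replicate 1 edgeR called 7 members (6.60%), against 3.64% of all genes, and without ASP shDHPS replicate 4 it called 4 (3.77%), against 4.58% of all genes.

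As a whole the nuclear members had a median log2 fold change of 0.12 with 75 of 91 above 0, against 50.6% of all genes. The offsets that remove trends over transcript length and GC content lowered that median to 0.07 with 65 of 91 above 0; the nuclear members are short, with a median transcript of 667 bases against 2161 for genes with at least 5 CPM. The class medians were 0.11 for complex I, 0.08 for complex II, 0.13 for complex III, 0.13 for complex IV, 0.12 for complex V and 0.15 for the assembly factors. Within complex II, Sdhb and Sdhd lay above 0 and Sdha and Sdhc below, all between −0.07 and 0.17. Summed, the nuclear members reached 11408, 10022, 10912 and 9305 CPM in ASP shDHPS and 10681, 8677, 9643 and 9305 CPM in ASP shSCR, so that the groups overlapped. In single members the libraries failed to overlap in 3 (2.83%), against 11.1% of all genes. Epithelial markers moved here too: 2 of 6 passed the test (Epcam and Krt7, both lower), and the 6 summed to between 3731 and 4395 CPM in ASP shDHPS. Their part in these values was not tested.

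The mt- mRNAs had a median of 0.09 in this comparison, with 11 of 13 above 0 and none called (lowest adjusted p 0.21). The length and GC offsets lowered it to 0.01 with 8 of 13 above 0, the offsets together with a replicate block gave −0.0035 with 6 of 13, and leaving out ASP shSCR replicate 2 gave 0.02 with 7 of 13. mt-Co1 measured 17664, 15257, 15505 and 16283 CPM in ASP shDHPS, and its log2 fold change was 0.19 ± 0.08 (SE, adjusted p = 0.21). mt-Rnr1 and mt-Rnr2 did not pass the test here, with log2 fold changes of 0.24 ± 0.22 (SE, adjusted p = 0.586) and 0.25 ± 0.12 (SE, adjusted p = 0.268). The log2 ratio of mt- mRNA to nuclear counts averaged 2.43 ± 0.15 (SD, n = 4), which differed from ASP shSCR by 0.02.

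**Figure D5:**
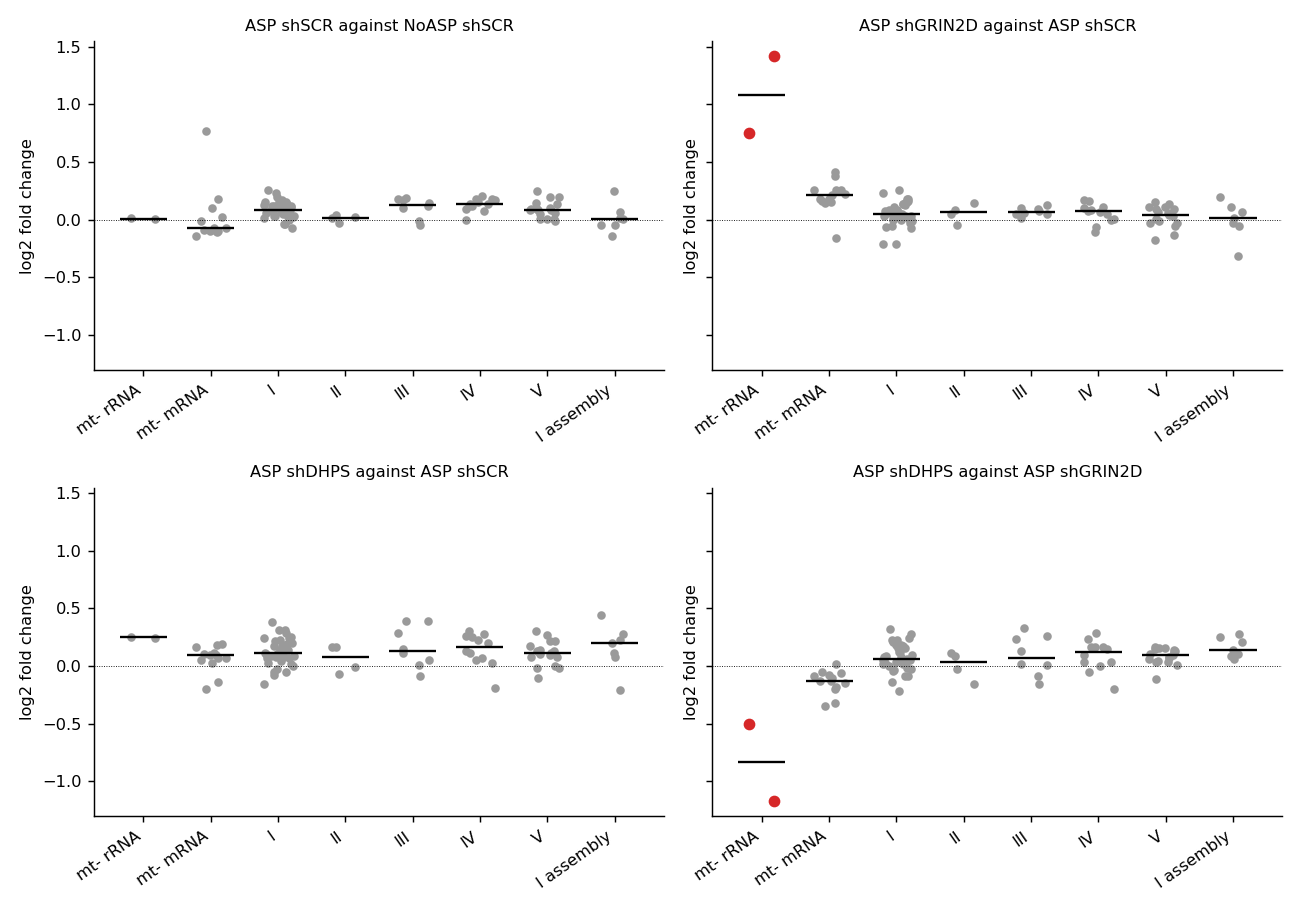
log2 fold change of 100 members in the 4 comparisons, by class; each point is 1 gene (the 15 mt- genes and the 85 nuclear members with a mean of at least 5 CPM), red where the adjusted p is under 0.05, and lines are class medians. The only red points are mt-Rnr1 and mt-Rnr2, at 1.42 and 0.75 in ASP shGRIN2D against ASP shSCR and at −1.17 and −0.50 in ASP shDHPS against ASP shGRIN2D.

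The last comparison set the targeting hairpins against each other. It shares no library with the aspartate comparison, but its ASP shGRIN2D and ASP shDHPS libraries are those of the comparisons with ASP shSCR. mt-Rnr1 and mt-Rnr2 were again the only 2 of 106 members called, both lower in ASP shDHPS than in ASP shGRIN2D, against 2.82% of all genes. mt-Rnr1 differed by −1.17 ± 0.24 on the log2 scale (SE, adjusted p = 0.00677) and mt-Rnr2 by −0.50 ± 0.13 (SE, adjusted p = 0.0379), with no overlap of libraries in either gene. Neither was called without ASP shGRIN2D replicate 1, where mt-Rnr1 had an adjusted p of 0.0595 and mt-Rnr2 one of 0.315, and neither without ASP shGRIN2D replicate 2, where these were 0.0504 and 0.101. mt-Rnr2 was also lost without ASP shDHPS replicate 1, 2 or 3 (adjusted p 0.0671, 0.0724 and 0.111).

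The other 104 members did not exceed the background. At an unadjusted p under 0.05 there were 9 of them (8.65%), against 14.8% of all genes, and libraries failed to overlap in 6 (5.77%), against 15.1% of all genes. The mt- mRNAs and the nuclear members had medians on opposite sides of 0, at −0.13 with 12 of 13 below and at 0.09 with 75 of 91 above. With the length and GC offsets the nuclear median was 0.03 with 55 of 91 above 0 and the mt- mRNA median −0.17, and without ASP shDHPS replicate 3 the nuclear median was 0.04 with 63 of 91 above 0. Of the epithelial markers 1 of 6 (Cldn7) passed the test, higher in ASP shDHPS. The log2 ratio of mt- mRNA to nuclear counts was lower in ASP shDHPS by a difference of −0.18, within overlapping libraries: ASP shDHPS replicate 4, at 2.64, stood above 2 of the 3 ASP shGRIN2D libraries.

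Genes that serve oxidative phosphorylation without belonging to the symbol rule were listed by function. With aspartate none of the 30 genes of mitochondrial transcription and RNA processing, 12 of mitochondrial DNA replication, 8 regulators of respiratory gene transcription or 44 other assembly factors, subunits and carriers was called, and none was called in ASP shGRIN2D against ASP shSCR. In ASP shDHPS against ASP shSCR 2 of the listed genes were called, both higher, against 4.22% of all genes tested. The listed genes were thus not called more often than genes at large. Ecsit, which takes part in the assembly of complex I, measured 24.9, 26.0, 27.5 and 22.05 CPM against 19.0, 12.6, 19.6 and 17.5 CPM without overlap (log2 fold change 0.55 ± 0.13 SE, adjusted p = 0.0218). Fastkd5, a mitochondrial RNA-binding protein needed to process transcripts without flanking tRNAs, measured 13.9, 11.1, 13.9 and 12.9 CPM against 7.5, 7.5, 11.1 and 10.3 CPM (0.52 ± 0.15 SE, adjusted p = 0.0472). The call of Ecsit was lost on leaving out ASP shSCR replicate 2, ASP shDHPS replicate 2 or ASP shDHPS replicate 3 (adjusted p between 0.0508 and 0.0796). That of Fastkd5 was lost on leaving out 1 of ASP shSCR replicates 1, 2 and 4 or 1 of ASP shDHPS replicates 1, 3 and 4 (adjusted p between 0.0527 and 0.157).

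In the RNA processing list 23 of 30 genes lay above 0 in that comparison, with a median of 0.21, and 9 (30%) had an unadjusted p under 0.05, against 28.4% of genes averaging at least 5 CPM. In ASP shDHPS against ASP shGRIN2D the only listed gene called was Mgme1, against 2.82% of all genes tested. Mgme1, a nuclease of mitochondrial DNA replication, measured 18.5, 15.1, 17.7 and 16.0 CPM against 11.2, 11.6 and 12.7 CPM (0.51 ± 0.13 SE, adjusted p = 0.0301). Its libraries did not overlap, but the call was lost without any single ASP shGRIN2D library and without ASP shDHPS replicate 1 or 3 (adjusted p between 0.0678 and 0.171).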

How the data were processed

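The authors trimmed paired-end reads of poly(A)-selected, stranded libraries with Trim Galore 0.6.6, mapped them to GRCm39 with STAR 2.6.1 and deposited Salmon 1.4.0 counts per gene, rounded to whole numbers; tool versions come from the submitters' processing notes. The counting's strand setting was not given in the sources used here. The study removed unexpressed genes, and each gene left in the table had counts in at least 2 libraries of a group. The deposited DESeq2 and enrichment tables hold the authors' own comparisons and were not used.

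Counts of 19525 genes were fitted with edgeR 4.0.16 (TMM, quasi-likelihood test, group as the only term, all 14 libraries) and adjusted by Benjamini-Hochberg over all genes, with calls made below 0.05. The fit was tested on simulated data. CPM use the TMM library sizes, and log2 CPM a prior count of 2. DESeq2 1.42.0, other scalings, filterByExpr, the 2 compared groups alone, length and GC offsets and omission of libraries were alternatives. Lengths, mitochondrial positions and sequences came from GENCODE M21 (GRCm38), matched by gene ID for 97.0% of genes, and copies were found with BLAST+ 2.17.0. The length of a gene was the median over its annotated protein-coding transcripts, or over all its transcripts where none was protein-coding. It was not weighted by use of the transcripts, so levels per kilobase are approximate and depend on which transcripts are annotated. Named were the mt- genes, up to 4 called members with at least 5 CPM in each direction, Sdha to Sdhd, the complex IV paralogs and called genes of the other lists. Members and lists were chosen with earlier results of these data known.

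Like-numbered ASP shSCR and NoASP shSCR libraries deviated together from their group means (r between 0.20 and 0.51 over 10224 genes), so the numbers were taken to pair them.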

Additional observations from a re-analysis of the deposited data

Results flagged for a closer look

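In groups of 4 libraries, each member named in the report and the summed levels were checked for a library far from the others; 62 such checks were made, of which chance alone flags about 1 in 20. ASP shSCR replicate 4 stood apart in mt-Nd5, a membrane subunit of complex I, at 4063 CPM against 2718, 2775 and 2852 CPM in replicates 1 to 3. The same library stood apart in the log2 ratio of mt- mRNA to nuclear counts, at 2.69 against 2.30, 2.33 and 2.31. It was also the library with the fewest counts, 12731123. In NoASP shSCR and ASP shDHPS, too, mt-Nd5 was highest in the library numbered 4, at 4227 and 4049 CPM.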

How the results depend on the processing

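The counts of members called were 0 with aspartate, 2 in ASP shGRIN2D against ASP shSCR, 0 in ASP shDHPS against ASP shSCR and 2 in ASP shDHPS against ASP shGRIN2D, and under every scaling (RLE, library size, scaling without mt- genes) they were the same. In the third comparison DESeq2 gave 5, and a fit of its groups alone and the length and GC offsets gave 1 each. In the last, DESeq2 and filterByExpr gave 3, adding Ndufv1, and the offsets gave 3, adding mt-Nd4l. Leaving out the 3 libraries numbered 4, an alternative chosen after seeing the data like the pooling of copies, gave 3 in the second (mt-Nd5 added) and 1 in the last (mt-Rnr1). Leaving out single libraries gave 0 to 0, 1 to 3, 0 to 7 and 0 to 3 members in the 4 comparisons. With the replicate number as a block the counts became 0, 7, 14 and 8 (0%, 6.60%, 13.2% and 7.55% of members, against 0.0102%, 3.13%, 11% and 7.52% of all genes), and with the block and the offsets together 0, 11, 12 and 16 (0%, 10.4%, 11.3% and 15.1%, against 0.0102%, 4.58%, 12.8% and 8.77%). The 5 members added by the block in the second comparison were mt-Co1, mt-Cytb, mt-Nd4, mt-Nd4l and mt-Nd5, all higher. For the aspartate comparison, where like numbers pair the libraries, a block within the 7 shSCR libraries (added after seeing the data) also called 0 members, against 0.328% of all genes. In the other 3 comparisons the pairing was weaker or absent. There, r of like-numbered libraries ran from −0.12 to 0.04, from 0.04 to 0.26 and from 0.01 to 0.23. In the same order, 1 of 6, 5 of 8 and 2 of 6 libraries were closest to their own number. Between NoASP shSCR and ASP shDHPS, r was 0.21, 0.31 and 0.37 for numbers 2, 3 and 4. Whether the numbers pair ASP shDHPS with the shSCR libraries was left undecided. Causes of the shifts in the counts were not tested. As differences between groups, the summed levels and ratios moved by less than 1 SD under the alternatives, except in ASP shDHPS against ASP shGRIN2D, where the median over members in place of the sum gave −0.23 in place of −0.10 for the mt- mRNAs and −0.33 in place of −0.18 for the ratio. That SD exceeded several of the differences, so a change of sign could pass. Leaving out single libraries, the aspartate difference ran from −0.16 to 0.04 for the mt- mRNA sum and from −0.23 to 0.03 for the ratio. In ASP shDHPS against ASP shSCR the ratio ran from −0.05 to 0.11, and in ASP shGRIN2D against ASP shSCR the nuclear sum from −0.0042 to 0.10. The other differences kept their sign in these omissions. The 19 changes of named genes kept their direction in all 353 alternative fits, of which 28 lost a call and 24 gained one. Many of these changes were named for their values in the same libraries, which the alternative fits largely share. Their kept direction is thus no separate evidence. Low counts limit mt-Nd6, Grin2d and the silent paralogs most.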
